A study of Mus musculus with 9 samples.

Results

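The messages bound by FMRP, whose loss causes fragile X syndrome, were compared between mouse brain at postnatal day 25 (P25) and at P14 and P15. The comparison used 5 of the 9 libraries of the series, all those sequenced on the 454 platform after polyribosomes were dissociated in 1% SDS. The P25 group held 1 library made with a monoclonal mix (7G1-1 and 2F5) and 1 made with a polyclonal antibody. The younger group held a monoclonal and a polyclonal library from P14 and a monoclonal library from P15. Per the labels' protocols, all 5 came from the cortex and cerebellum of male FVB mice, dissected away from white matter, treated with cycloheximide and irradiated with ultraviolet light. The protocols describe wild-type mice with Fmr1-null littermates handled alongside, and the series text describes pooled littermates. The null samples were not analysed here. Each library is therefore a pool of animals, and whether the monoclonal and polyclonal libraries of 1 age came from 1 lysate was not given in the sources used here.

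FMRP binds coding sequences of long neuronal messages on polyribosomes and slows their translation. HITS-CLIP crosslinks proteins to RNA in contact with them by ultraviolet light, recovers 1 protein with an antibody and reads the attached RNA pieces as sequence tags. The ages compared span the end of axon growth and the main period of synapse formation and refinement in the mouse, when glutamate receptor subunits are exchanged, axons are myelinated and cerebellar circuits mature. The question was whether the set of messages bound by FMRP changed over this interval.

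The authors' gene table held between 4475 tags (P14 monoclonal) and 8348 tags (P25 monoclonal) per library. The P14 polyclonal library had 6942 tags, the P15 library 7380 and the P25 polyclonal library 5850. Of 5941 genes with a tag in any of these libraries, 2205 had 1 tag, 824 had at least 10 and 698 had a tag in all 5. Counts were scaled by edgeR's TMM factors and are given as normalised tags per 10000. They are not adjusted for transcript length or for the amount of each mRNA, so more tags can reflect more cells of a type, more mRNA per cell or more FMRP on each mRNA, and these cannot be told apart. By their read names, the P14 libraries shared a sequencing run, P15 had its own run and the P25 libraries shared another. Sequencing run and age therefore cannot be told apart. The p-values rest on how the 5 libraries vary within an age once antibody is a term of the fit. Libraries of 1 age may share a lysate, so this variation need not be variation between separate pools of animals. Over the 96 genes with enough tags to test, Spearman's correlation between libraries was 0.577 for the P14 pair, 0.546 for the P25 pair and between 0.416 and 0.584 over all pairs.

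A single gene, Arhgap32, passed the test for age, and it was higher at P25. Arhgap32 encodes a protein that switches off small GTPases and is found at the postsynaptic density. Its level was 16.2, 8.47 and 10.7 normalised tags per 10000 in the P14 monoclonal, P14 polyclonal and P15 libraries, and 31.1 and 33.2 in the P25 monoclonal and polyclonal libraries. Both P25 libraries thus lay above all 3 younger ones, whose mean was 11.8 ± 3.98 (SD, n = 3). The numbers of tags behind these levels were 8, 6 and 8 against 26 and 17. The log2 difference was 1.49 with a standard error of 0.42, and the adjusted p was 0.0484 by edgeR's quasi-likelihood test with antibody as a term and Benjamini-Hochberg adjustment. It was the only call among the 96 tested genes, a share of 1.04%. With DESeq2's size factors the log2 difference was 1.42 with an adjusted p of 0.120, and with library totals 1.37 with an adjusted p of 0.167. Leaving out any 1 library ended the call, with log2 differences of 1.20 to 1.86 and adjusted p-values of 0.253 to 0.867. Scaling by library totals moved the median log2 difference of all 96 genes by -0.13, and relative to that median Arhgap32 was 1.43 higher with either scaling.

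**Figure D1:**
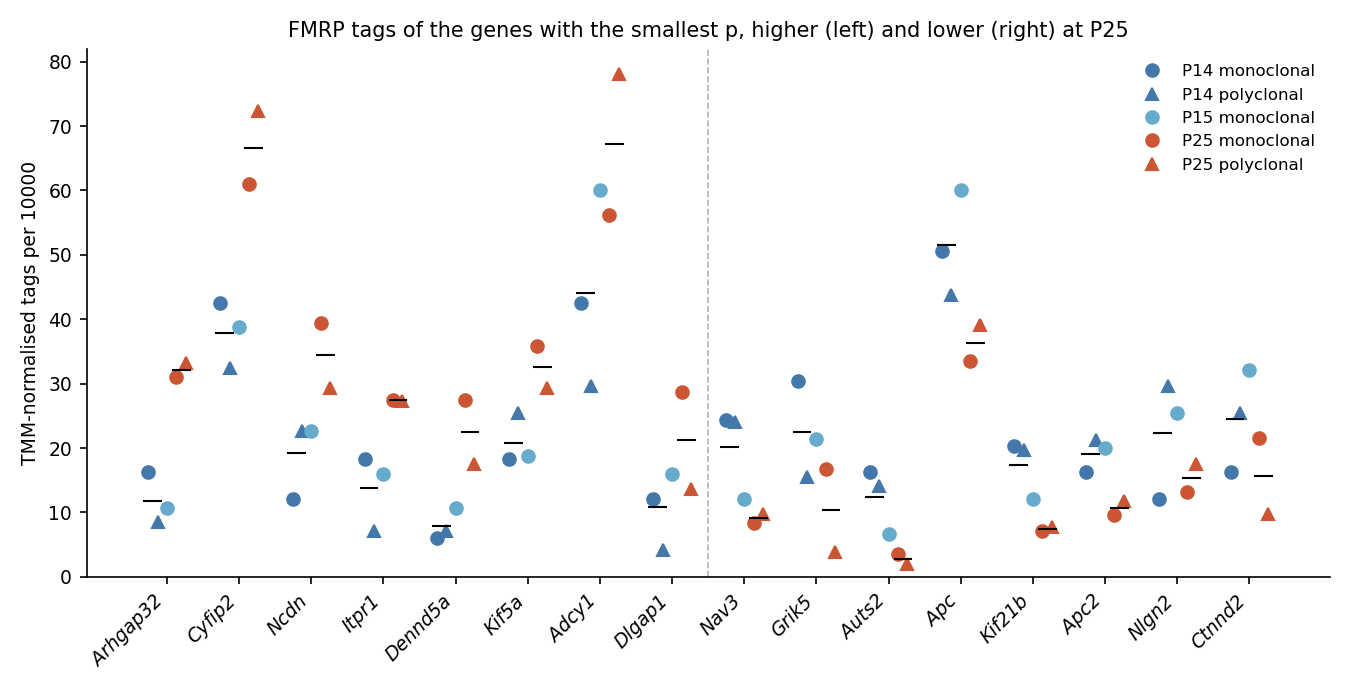
Normalised tags per 10000 (vertical axis) of 16 genes in each of the 5 libraries, coloured by age, with circles for the monoclonal mix, triangles for the polyclonal antibody and black lines for the mean of each age group. The 8 genes on the left had the smallest unadjusted p among those higher at P25, the 8 on the right among those lower; Arhgap32, at 31.1 and 33.2 against 8.47 to 16.2, is the gene that passed the adjusted test.

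Arhgap32 lies at chr9:32015785-32068869 of mm9 in the authors' table, and its tags were spread along the message. The transcript tag lists placed its 22 younger and 43 P25 tags on 36 separate stretches of a 5469-nt transcript, from position 137 to position 5171. Of these stretches, 5 held tags of both age groups, 21 held P25 tags alone and 10 held younger tags alone. The stretch with most tags held 7 from P25 and 4 from the younger libraries, so the P25 excess did not come from a single site. Nearly all tags were coding, 42 of 43 at P25 and 21 of 22 at P14 and P15.

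**Figure D2:**
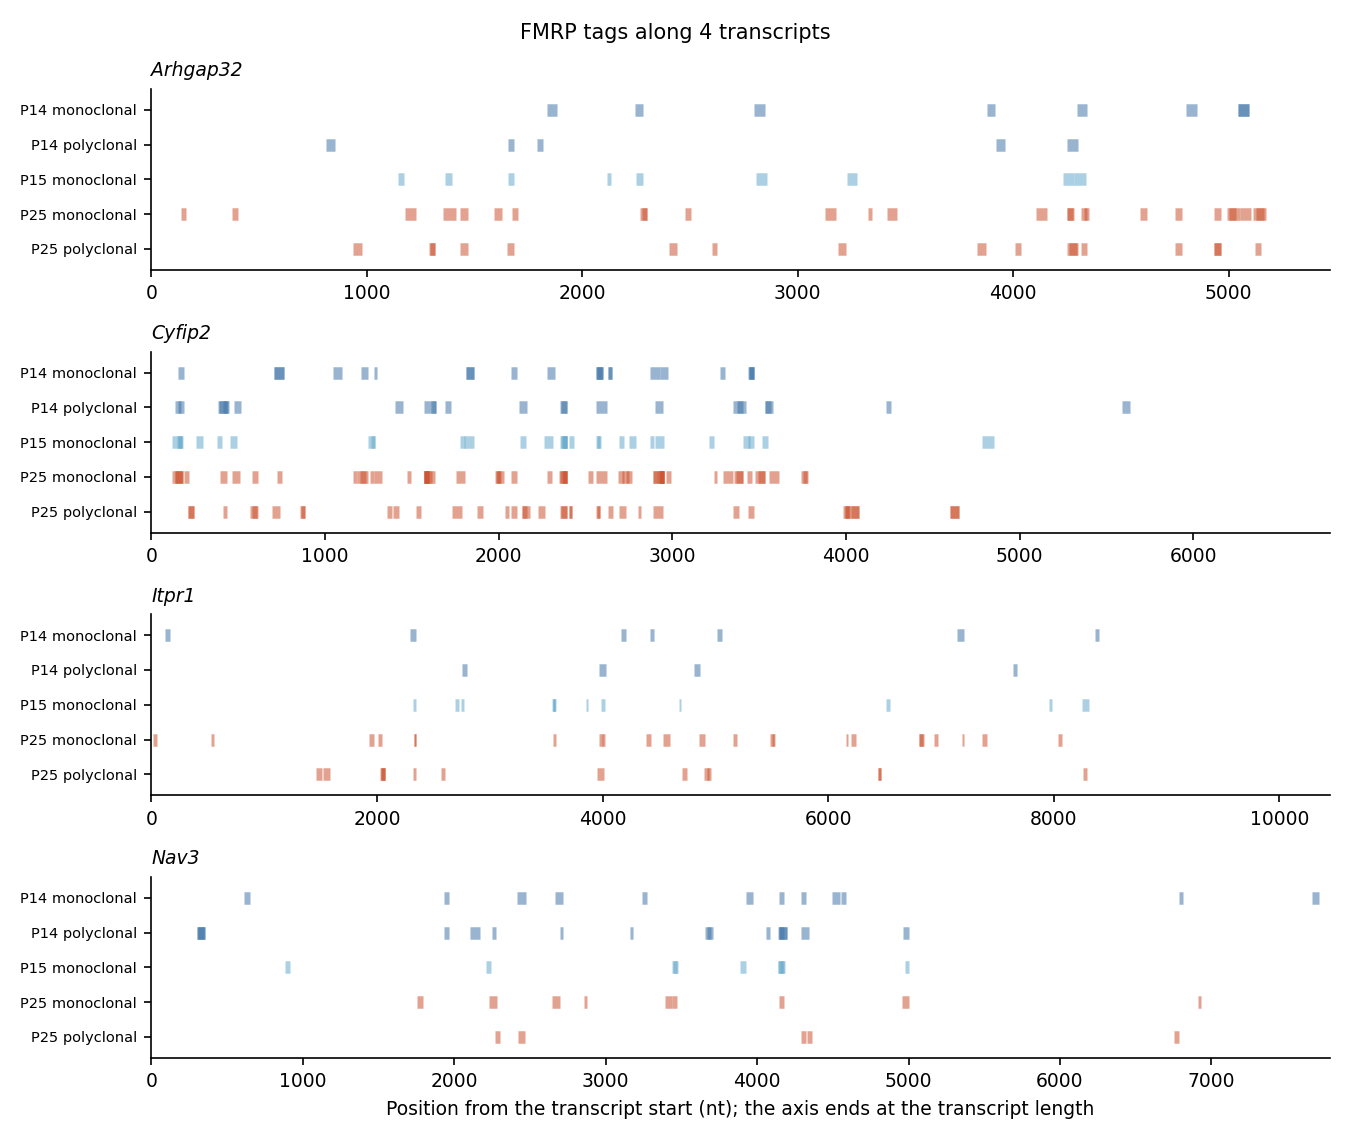
Positions of tags along Arhgap32, Cyfip2, Itpr1 and Nav3 in nucleotides from the transcript start (horizontal axis), with 1 row per library and 1 mark per tag. Tags of Arhgap32 lie over 36 stretches between positions 137 and 5171, and those of Cyfip2 over 41 stretches, 21 of them holding tags of both ages.

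The next genes in order of p had higher values at P25 and did not pass the adjusted test. Cyfip2 (chr11:46007360-46125852), which encodes an FMRP partner that is also a subunit of the actin-nucleating WAVE complex, had 42.5, 32.5 and 38.7 normalised tags per 10000 in the younger libraries. At P25 it had 61.0 and 72.3, above every younger library, with a log2 difference of 0.81 (SE 0.29, edgeR adjusted p = 0.285). Its tags fell on 41 stretches of the transcript, 21 of which held tags of both ages, and 62 of the P25 tags and 65 of the younger tags lay in those shared stretches. Outside the shared stretches lay 27 P25 tags and 6 younger tags. Ncdn, which encodes the neuronal cytoplasmic protein neurochondrin, had 12.2, 22.6 and 22.7 normalised tags per 10000 against 39.5 and 29.3, a log2 difference of 0.82 (SE 0.31, edgeR adjusted p = 0.295) that was 0.28 without the P25 monoclonal library. Itpr1 (chr6:108163090-108501104), the inositol trisphosphate receptor that releases calcium from the endoplasmic reticulum and is abundant in Purkinje cells, had 18.2, 7.06 and 16.0 against 27.5 and 27.3. Its log2 difference was 1.08 (SE 0.44, edgeR adjusted p = 0.308), and 37 P25 and 23 younger tags were scattered over 36 stretches. With single libraries left out the Itpr1 difference ranged from 0.64, without the P14 polyclonal library, to 1.84, without the P25 monoclonal one. Dennd5a (chr7:117037295-117103936), a DENN-domain protein that acts on Rab GTPases, had 6.08, 7.06 and 10.7 against 27.5 and 17.6. It passed the filter on low counts through the P25 libraries alone, which fixes its direction. Dennd5a had far fewer tags in the transcript tag lists than in the authors' gene table, which gave these values.

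The kinesin heavy chain Kif5a, a motor of axonal and dendritic transport, had 18.2, 25.4 and 18.7 normalised tags per 10000 at P14 and P15 and 35.9 and 29.3 at P25. The log2 difference of Kif5a was 0.65 (SE 0.31, edgeR adjusted p = 0.566), with 0.95 within the monoclonal and 0.21 within the polyclonal libraries. With single libraries left out it ranged from 0.12 to 0.93. For Adcy1, the calcium-stimulated adenylyl cyclase, the groups overlapped, with 42.5, 29.7 and 60.1 against 56.2 and 78.1. The postsynaptic scaffold gene Dlgap1 also overlapped, since its P25 polyclonal library had 13.7 and the P15 library 16.0. These 8 genes, from Arhgap32 to Dlgap1, were those with an unadjusted p under 0.05 among the 96, and in all 8 the P25 level was the higher, for Dennd5a by the filter. That one-sidedness depended on the scaling. With DESeq2's size factors 5 genes were higher and 1 lower at that p, and with library totals 5 were higher and 2 lower. Over all 96 genes, 51 had higher values at P25 and 45 lower.

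No gene that was lower at P25 passed the test. Nav3 (chr10:109120495-109437275) encodes a neuron navigator, a protein of growing microtubule ends, and had the smallest p in that direction. It had 24.3, 24.0 and 12.0 normalised tags per 10000 in the younger libraries and 8.37 and 9.77 at P25, so that both P25 libraries lay below the others. The log2 difference was -1.14 (SE 0.62, edgeR adjusted p = 0.621). In the transcript tag lists its 37 younger tags and 14 P25 tags lay on 24 stretches, and the stretch with most tags held 7 younger tags and 1 P25 tag. Auts2 (chr5:131913203-133018213), a regulator of neuronal differentiation and migration, had 16.2, 14.1 and 6.68 against 3.59 and 1.95. The groups also did not overlap for Apc, a scaffold of Wnt signalling and microtubule ends, with 50.7, 43.8 and 60.1 against 33.5 and 39.1. Its neuronal relative Apc2 had 16.2, 21.2 and 20.0 against 9.57 and 11.7. The values of Apc are from the authors' gene table, and the transcript tag lists held far fewer of its tags. Kif21b (chr1:138027978-138074591), a kinesin that also limits microtubule growth, had 20.3, 19.8 and 12.0 against 7.18 and 7.81. For Grik5 (chr7:25794870-25857388), a kainate receptor subunit, the groups overlapped, with 30.4, 15.5 and 21.4 at the younger ages and 16.7 (monoclonal) and 3.91 (polyclonal) at P25. The log2 difference was -0.55 within the monoclonal and -1.73 within the polyclonal libraries. Adjusted p-values by edgeR were between 0.621 and 0.656 for these genes. In all, 14 of the 96 genes (14.6%) had both P25 libraries above every younger library and 11 (11.5%) had both below. Of the 14, 2 had passed the filter through P25 alone, and of the 11, 7 had passed through the younger libraries alone, Nav3, Auts2, Kif21b and Apc2 among them. Passing through P25 alone fixes the direction. Passing through the younger libraries alone only favours a lower value at P25, since Dlgap3 and Prkce passed in this way with log2 differences of 0.42 and 0.16. With directions fixed or favoured by the filter, these counts support nothing about the ages.

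The antibodies gave partly different age differences. P25 was set against P14 and P15 within the monoclonal libraries and against P14 within the polyclonal libraries, which share no sample. Of the 96 genes, 61 (63.5%) had the same sign in both, 33 higher and 28 lower, and across genes Pearson's r was 0.243 and Spearman's rho 0.268. Genes are not independent replicates, and these values describe the 5 libraries. Arhgap32 was higher in both, by log2 1.25 with the monoclonal mix and 1.90 with the polyclonal antibody, and Cyfip2 by 0.60 and 1.14. Nav3 was lower in both, with log2 differences of -0.95 and -1.20. Lrp1, an endocytic receptor for lipoproteins, was lower by the monoclonal mix (-1.80) and higher by the polyclonal antibody (0.87). An age by antibody interaction, fitted with 1 residual degree of freedom, called none of the 96 genes. Of these genes, 3 had an unadjusted p under 0.05, and the smallest adjusted p by edgeR was 0.414, for Lrp1.

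**Figure D3:**
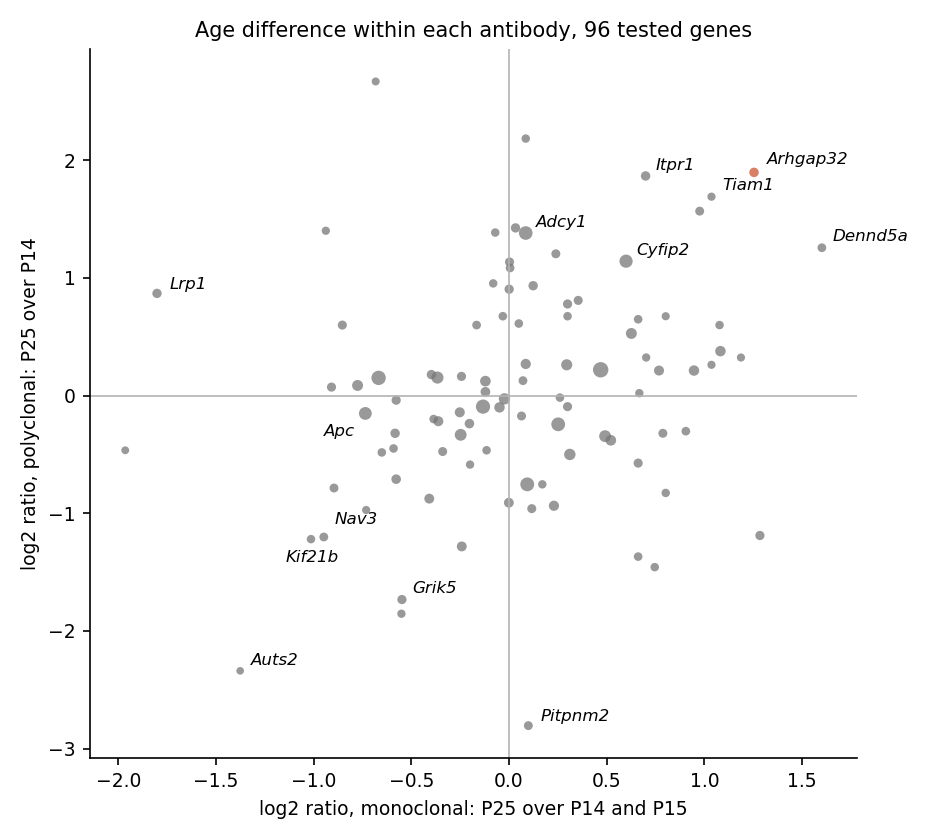
Log2 difference between P25 and the younger ages in the polyclonal libraries (P25 over P14, vertical axis) against that in the monoclonal libraries (P25 over P14 and P15, horizontal axis), 1 point per tested gene, sized by its number of tags, with Arhgap32 in red. Of the 96 genes, 61 lie in the quadrants of equal sign, and Lrp1 is among those with opposite signs.

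To bring in genes with few tags, counts were added up over genes that share a symbol stem, such as Scn for the voltage-gated sodium channels, and 178 stems or single genes were tested in the same way. None passed the adjusted test (0%), and the smallest adjusted p by edgeR was 0.548. At an unadjusted p under 0.05 there were 14, of which 7 were higher and 7 lower at P25, and DESeq2 called none, with 6 at an unadjusted p under 0.05. The values below are on the scale of this pooled fit, and tag numbers of single genes are sums over the 3 younger and the 2 P25 libraries. In 22 of the 178 (12.4%) both P25 libraries lay above every younger library, and in 26 (14.6%) both lay below. The same filter on low counts applied here. Pcdha and Auts2, for example, passed it through the younger libraries alone, and the Brinp stem through the P25 libraries alone. The filter favours or fixes the direction of such rows, so these counts of directions support nothing about the ages.

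Among the stems with higher values at P25, the sodium channel genes (Scn) had 13.6, 15.9 and 13.1 normalised tags per 10000 in the younger libraries and 24.9 and 29.7 at P25. The groups did not overlap, and the log2 difference was 0.89 (SE 0.35, edgeR adjusted p = 0.548). Of its 7 genes, Scn8a, the channel of mature nodes of Ranvier and of Purkinje cells, had 17 younger and 21 P25 tags. Scn2a, the channel of immature axon initial segments, also had more, 7 and 11 tags, while Scn3a, expressed mainly before birth, had 2 and 0. The GTPase-activating proteins of the Arhgap stem had 66, 62.2 and 52.5 normalised tags per 10000 against 94.9 and 78.5, of which Arhgap32 supplied 22 younger and 43 P25 tags. Its relatives did not all differ in this direction, since Arhgap35 had 14 younger and 20 P25 tags and Arhgap23 had 11 and 4. Of the 11 younger tags of Arhgap23, 9 came from the P14 monoclonal library. The Mediator subunits (Med), which couple transcription factors to RNA polymerase, had 15.9, 23.2 and 27.5 against 36.8 and 43.6, with Med13l, Med13 and Med16 contributing most of the P25 tags. For the stems Cyfip, Itpr and Dennd most tags came from Cyfip2, Itpr1 and Dennd5a. The Trim stem, outside the 6 with the smallest p, had 31.8, 23.2 and 36.7 against 41.5 and 61.1.

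Among the stems with lower values at P25, the neuron navigators (Nav, unrelated to sodium channels) stood first. They had 56.9, 43.4 and 26.2 normalised tags per 10000 in the younger libraries and 19.0 and 8.72 at P25, and the log2 difference was -1.46 (SE 0.44, edgeR adjusted p = 0.548). All 3 navigator genes had fewer tags at P25, with 38 and 12 for Nav3, 28 and 6 for Nav1 and 9 and 3 for Nav2. Within the monoclonal libraries the log2 difference was -0.95 and within the polyclonal ones -2.20. In the fit it was -0.92 without the P25 polyclonal library and -2.28 without the P25 monoclonal one. The adjusted p was 0.0416 without the antibody term and 0.04997, just under the threshold of 0.05, on coding-sequence counts. The α-protocadherins (Pcdha), cell-surface proteins that give neurons their identity, had 11.4, 21.7 and 17.0 against 4.74 and 3.49. Their isoforms share 3′ exons, so 1 tag can be counted for many of them and this value is uncertain. Pcdha also passed the filter on low counts through the younger libraries alone, which favours this direction.

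The leucine-rich repeat genes (Lrrc) had 34.1, 56.4 and 38.0 normalised tags per 10000 at the younger ages against 23.7 and 29.7 at P25. Within that stem Lrrc4b, a postsynaptic adhesion protein, had 23 younger and 3 P25 tags, and Lrrc7, a postsynaptic density protein, 12 and 1. Of the volume-regulated anion channels, Lrrc8a had 12 and 2, Lrrc8b 9 and 9, Lrrc8c 2 and 0 and Lrrc8d 1 and 2. The kainate receptors (Grik) had 40.9, 24.6 and 26.2 against 21.4 and 6.98, and Grik5 gave most of these tags, 42 younger and 16 from P25. For the Celsr cadherins of planar polarity the groups overlapped, with 36.4, 20.3 and 36.7 against 21.4 and 12.2. The age by antibody interaction called none of the 178, with 11 at an unadjusted p under 0.05 and a smallest adjusted edgeR p of 0.103, for the γ-protocadherin stem Pcdhga. That stem, whose isoforms also share exons, was called by age once the P14 polyclonal library was left out (adjusted p = 0.0217).

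**Figure D4:**
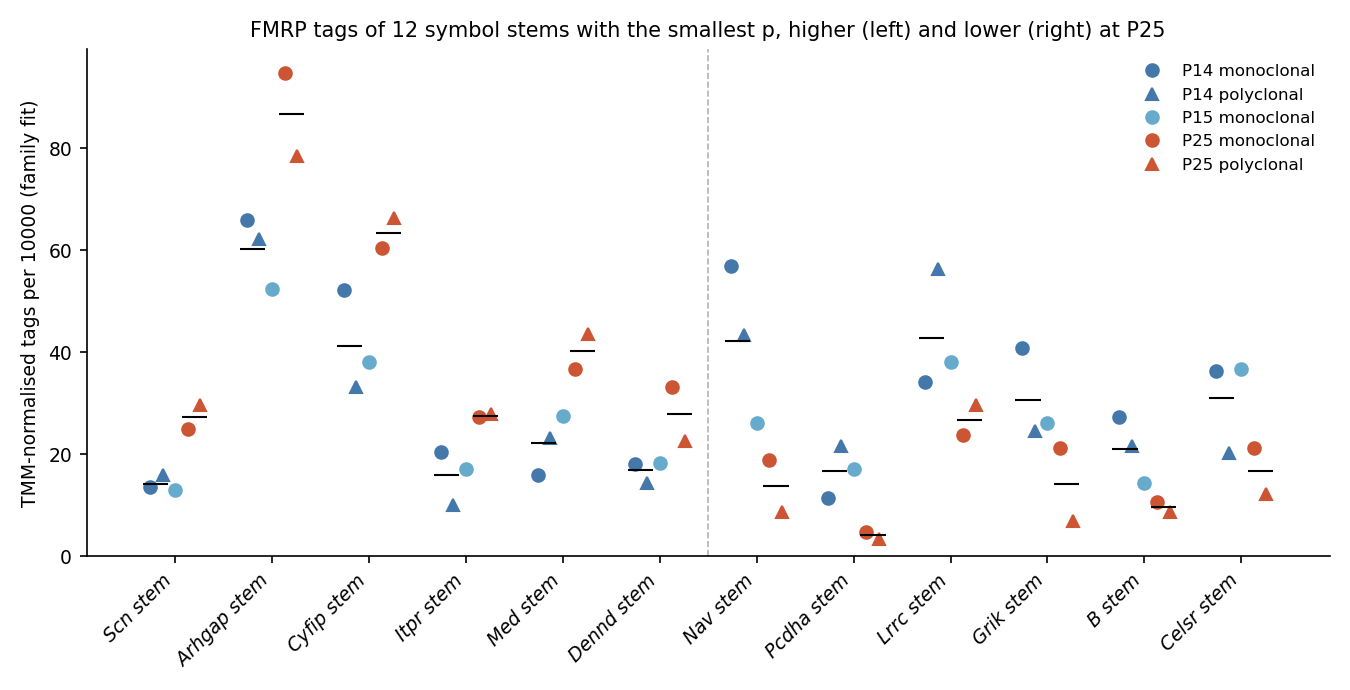
Normalised tags per 10000 of 12 symbol stems (vertical axis, pooled fit) in each of the 5 libraries, coloured by age, with circles for the monoclonal mix, triangles for the polyclonal antibody and black lines for group means. The 6 stems on the left had higher values at P25 and the 6 on the right lower, with the navigators (Nav) between 26.2 and 56.9 in the younger libraries and at 19.0 and 8.72 at P25; none passed the adjusted test.

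Gene lists were summed next, and each sum is given as a ratio of scaled tags at P25 to those at P14 and P15, with an exact 95% interval. These intervals and all others here cover counting error only, not the spread between animals. Under TMM scaling the ratio over all genes of the table was 1.09 (interval 1.07 to 1.12), so lists are read against that value rather than 1. Of 36 lists, 3 had an interval wholly above it and 4 wholly below. Single libraries weighed on these counts: 1 list lay above without the P14 polyclonal or the P25 monoclonal library, and 2 lay below without the P14 polyclonal or the P25 polyclonal library. Regulators of small GTPases, which switch these signalling proteins on or off, made up the largest list above it. They had 361, 380 and 370 normalised tags per 10000 at the younger ages and 472 and 469 at P25, a ratio of 1.27 (1.14 to 1.41). The ratio was 1.29 in the monoclonal and 1.23 in the polyclonal libraries. It was 1.34 without Agap2, the member with most tags, whose own log2 difference was -0.21. The interval of this list reached the ratio of all genes with the polyclonal libraries alone and without the P25 monoclonal library. Of 54 members 53 had a tag and 7 were tested, of which 4 had higher and 3 lower values at P25 with a median log2 difference of 0.53, beside 0.07 over all 96 genes. Only Arhgap32 among them passed the test. It supplied 22 younger and 43 P25 tags of the list, and the ratio without it was not computed. Whether the interval of the list would stay above the ratio of all genes without Arhgap32 was therefore not tested.

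Adenylyl cyclases and other genes of cyclic AMP signalling had 138, 116 and 120 normalised tags per 10000 against 145 and 199, a ratio of 1.34 (1.11 to 1.62). The ratio was larger in the polyclonal libraries, 1.72, than in the monoclonal ones, 1.14, and all 3 tested members had higher values at P25. The interval was no longer wholly above all genes without Adcy1 (1.29, 1.01 to 1.63), with the monoclonal libraries alone, or without the P14 polyclonal, the P15 or the P25 polyclonal library. The Cyfip and WAVE genes had 54.7, 45.2 and 50.8 against 73.0 and 85.9, a ratio of 1.57 (1.18 to 2.09). Without Cyfip2 it was 1.02 (0.52 to 1.99), from 24 younger and 17 P25 tags, too few to show whether the other members differed. The interval of this list also reached the ratio of all genes with the monoclonal libraries alone. It did so too without the P14 polyclonal or the P25 monoclonal library. The PI3K-mTOR genes were near this group with a ratio of 1.29 (1.01 to 1.66), 1.02 with the monoclonal mix and 1.90 with the polyclonal antibody. Eif4g2, a translation initiation factor in that list, had 2, 2 and 4 tags at the younger ages and 9 and 12 at P25.

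Below the ratio of all genes lay early neuronal growth genes, which had 87.1, 90.4 and 74.8 normalised tags per 10000 at the younger ages and 70.6 and 62.5 at P25. Their ratio was 0.81 (0.62 to 1.05). The interval reached the ratio of all genes without Map1b, the member with most tags (0.80, 0.55 to 1.16). It also did so with the monoclonal libraries alone, and without the P14 monoclonal, the P14 polyclonal or the P25 polyclonal library. Map1b, a microtubule-associated protein of growing axons, supplied 122 of the 254 tags, with 44.6, 42.4 and 34.7 against 32.3 and 33.2, and a log2 difference of -0.30 that did not pass the test (edgeR adjusted p = 0.756). Of other growth genes that are abundant in young brain, Gap43 had 1 tag in the 5 libraries, Marcks 1 and Dcx none, which allows a level of up to 3 tags per library. Microtubule-associated genes had 300, 311 and 301 against 248 and 307, a ratio of 0.89 (0.78 to 1.01), and the groups overlapped through the P25 polyclonal library. Of the 5 tested members 4 had lower and 1 higher values. The interval of this list reached the ratio of all genes with the polyclonal libraries alone and without the P25 monoclonal library. Guidance receptors and ligands had 93.2, 96 and 102 against 87.3 and 74.2, with a ratio of 0.85 (0.66 to 1.07). It was 0.89 in the monoclonal and 0.77 in the polyclonal libraries. The interval of the guidance list reached the ratio of all genes with either antibody alone. It also did so without the P14 monoclonal, the P15 or the P25 polyclonal library.

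**Figure D5:**
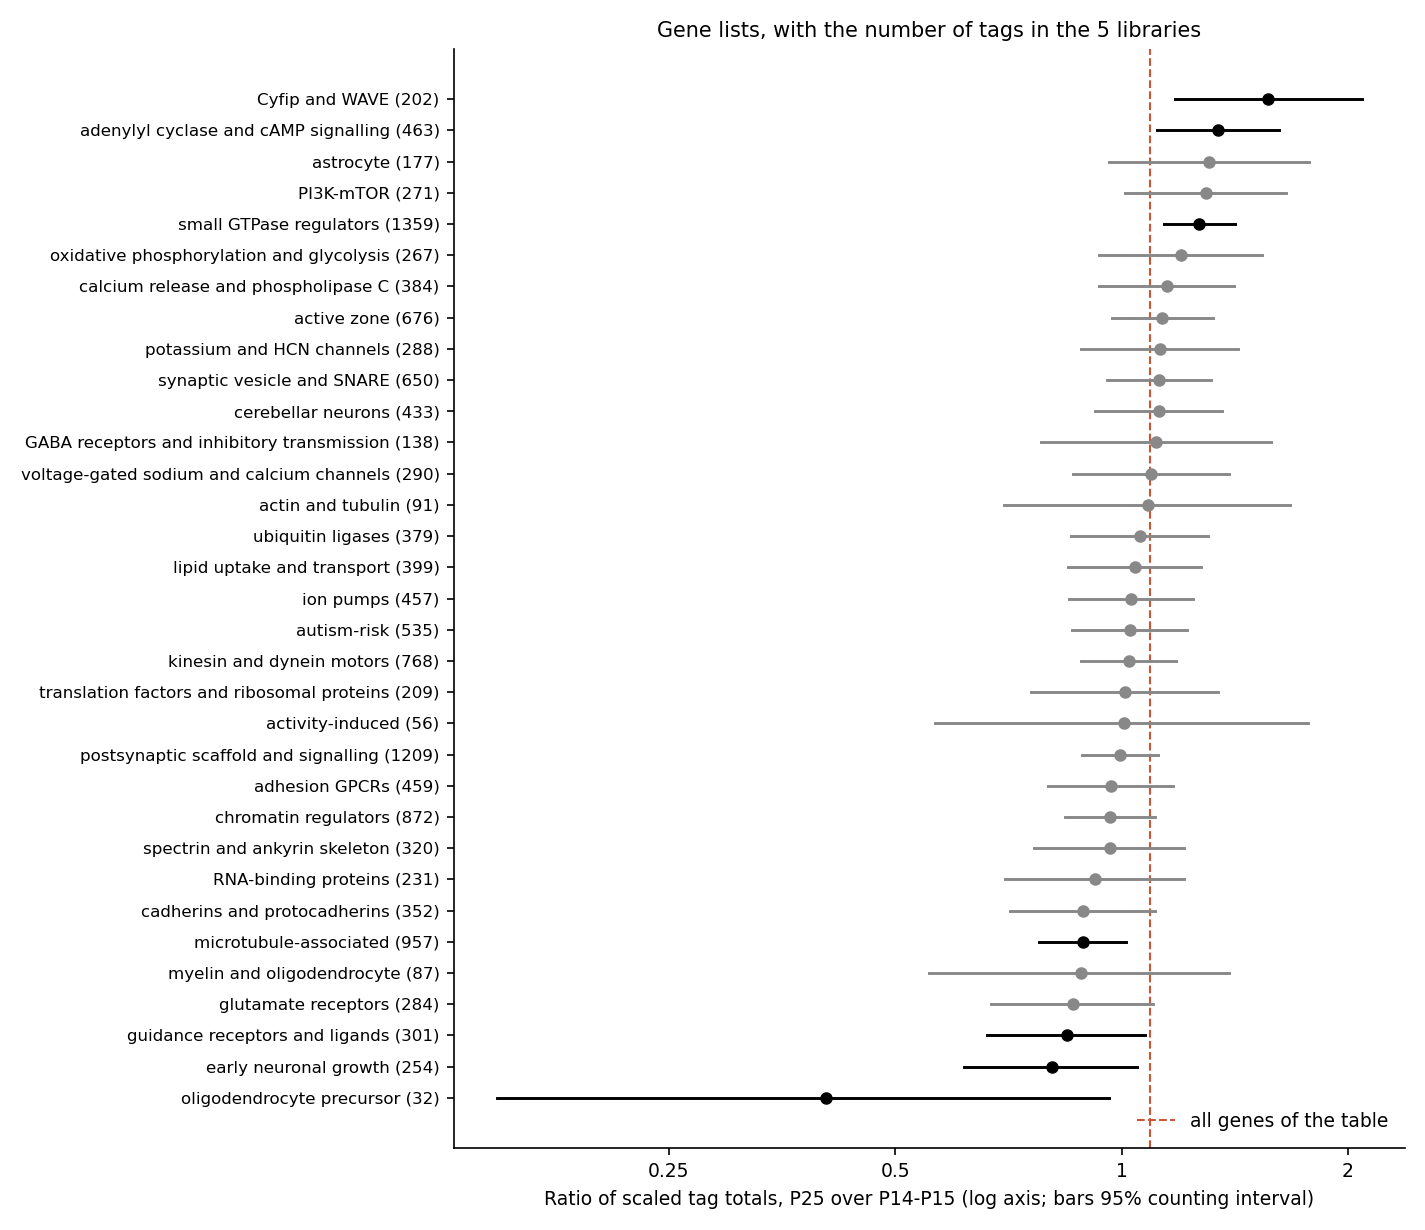
Ratio of scaled tags at P25 to P14 and P15 (horizontal log axis) with its exact 95% counting interval for each gene list with at least 20 tags, with the ratio over all genes, 1.09, as a dashed line. Lists in black have an interval that leaves out that line, with small GTPase regulators (1.27), cyclic AMP signalling (1.34) and Cyfip and WAVE (1.57) above it.

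Most synaptic lists lay near the ratio of all genes. Postsynaptic scaffold and signalling genes had a ratio of 1.00 (0.89 to 1.12), active zone genes 1.13 (0.97 to 1.32) and synaptic vesicle genes 1.12 (0.96 to 1.31). Glutamate receptor genes had 0.86 (0.67 to 1.10). The collections that the authors' table marks as postsynaptic proteome and presynaptic protein had ratios of 1.09 and 1.10. Among single synaptic genes, Bsn, the active zone scaffold bassoon and the gene with most tags, had 52.7, 70.6 and 62.8 normalised tags per 10000 at the younger ages and 81.3 and 82.0 at P25. Its log2 difference of 0.37 did not pass the test (edgeR adjusted p = 0.756). The postsynaptic scaffold Dlg4 had 8.10, 9.89 and 14.7 against 19.1 and 15.6. Camk2a, the kinase of synaptic plasticity, overlapped between ages with 12.2, 21.2 and 26.7 against 17.9 and 17.6.

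Over this period NMDA receptors in forebrain exchange GluN2B subunits for GluN2A. The bound messages of both overlapped between ages, with 4.05, 14.1 and 10.7 normalised tags per 10000 against 13.2 and 17.6 for Grin2a and 6.08, 21.2 and 18.7 against 16.7 and 19.5 for Grin2b. The log2 differences were 0.54 (SE 0.72) and 0.13 (SE 0.51). At this depth an exchange between these messages was not detectable. Other genes known for a postnatal rise were too low to test, among them Slc12a5, the neuronal chloride extruder, with 1, 4 and 2 tags against 2 and 2.

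Markers of other cell types were present at low levels. Myelin and oligodendrocyte genes had 18.2, 33.9 and 28.1 normalised tags per 10000 at the younger ages and 14.4 (monoclonal) and 41.0 (polyclonal) at P25, so the direction differed by antibody. Their ratio was 0.88 (0.56 to 1.39), with 18 of 26 genes detected, and Mbp, a defining myelin gene, had 0, 4 and 5 tags against 2 and 3. Oligodendrocyte precursor genes had 4, 11 and 10 tags against 6 and 1, a ratio of 0.41 (0.15 to 0.96) that was also wholly below that of all genes, with 8 of 9 genes detected. It was 0.64 in the monoclonal and 0.13 in the polyclonal libraries, and it ranged from 0.15 without the P25 monoclonal to 0.56 without the P25 polyclonal library. The interval reached the ratio of all genes with the monoclonal libraries alone and without either the P14 or the P25 polyclonal library. Astrocyte genes had 36.5, 56.5 and 46.8 normalised tags per 10000 against 64.6 and 58.6, a ratio of 1.31 (0.96 to 1.77), with 20 of 21 genes detected. Of 13 microglial genes 2 had a tag, and their sum was 2 tags in each age group. Endothelial genes had 3 tags at the younger ages and none at P25. The cerebellar neuron list had a ratio of 1.12 (0.92 to 1.36), 0.91 with the monoclonal mix and 1.57 with the polyclonal antibody. The part of these cell types in the gene and list differences was not tested.

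Most properties of the libraries as wholes overlapped between the ages, and with 3 libraries against 2 the smallest two-sided p of an exact permutation test is 0.2. The 100 genes with most tags took 22.1%, 21.1% and 21.2% of the tags at the younger ages and 21.4% and 19.0% at P25. At an equal depth of 4475 tags, 1984, 2144 and 2224 genes were expected with a tag against 2176 and 2215. The share of tags in coding sequence was 86.5%, 81.8% and 83.2% at the younger ages and 84.5% and 78.8% at P25, where 55.2% to 57.4% would lie if tags were placed evenly along the same transcripts. These shares overlapped between the ages (exact permutation p = 0.6). At P14 and at P25 the polyclonal library had the lower coding share.

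Mean transcript length, mean position along the transcript, mitochondrial tags, reads per tag and the number of transcript tags beside genomic tags also overlapped between the ages. Of all the measures, 3 separated the ages completely. For each measure such a separation has a two-sided exact permutation p of 0.2, so the count of 3 supports nothing about the ages. The median exon array intensity of the tagged messages, a measure of mRNA abundance deposited in the authors' table, was 518, 521 and 515 for the younger libraries and 551 and 539 at P25 (two-sided exact permutation p = 0.2). The genes of the highest intensity class (class 4 of 4 of equal size) took 41.5%, 43.1% and 42.6% of the tags at the younger ages and 44.3% and 43.4% at P25. Tags had a median length of 38, 41 and 37 nt at the younger ages and 34 and 33 nt at P25. Tags made of 1 read were 37.1%, 37.9% and 47.0% of the lists against 31.9% and 28.9%. Tag length and read support thus moved with age and with the sequencing run, and their part in the gene differences was not tested.

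The series also holds FMRP libraries from P11 and P13, made with the polyclonal antibody in 2% SDS and sequenced on the Illumina platform. Their ages and protocol differ from those above, so their values, scaled to library totals, are set beside the others without a test. Arhgap32 had 10.2 tags per 10000 at P11 and 26.2 at P13, Cyfip2 had 17.3 and 34.5, and Itpr1 had 11.8 and 38.7. The navigators together had 48.0 and 15.2 tags per 10000 and Apc had 154 and 60.3. Of the 10 genes with the smallest p among those higher at P25, 8 had the higher value at P13 and 2 at P11, and of the 10 lower at P25, 1 had the higher value at P13 and 9 at P11. Adcy1 (45.6 and 28.5) and Auts2 (0.39 and 3.22) were among the exceptions. Of the 6 stems higher at P25 all 6 had the higher value at P13, and of the 6 lower ones 2 did, Lrrc among them with 35 and 41.9. The P11 and P13 libraries have 1 library each, so their difference has no replicate check. How many of all tested genes or stems had the higher value at P13 was not computed. The filter fixed the P25 directions of Dennd5a and Tiam1 and favoured those of Nav3, Auts2, Kif21b, Apc2 and the Pcdha stem. These counts therefore support nothing about the ages.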

How the data were processed

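The 5 libraries are counted in the authors' deposited gene table, which holds raw tag counts per gene, with coding-sequence counts beside them (a column of other values, all whole numbers) and an exon array intensity per gene. Novoalign and mm9 are named in the submitters' processing notes, with no version. A tag is a set of collapsed reads. Rows without a gene identifier, 0.14% to 0.34% of the tags, were left out, and no per-sample column was left unmapped (0).

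Genes above 14.4 tags per 10000 in at least 2 libraries (edgeR's filterByExpr, 96 genes holding 18.4% to 21.4% of the tags) entered the quasi-likelihood fit of edgeR 4.0.16 (R 4.3.3), with TMM factors, antibody and age as terms, and adjusted p under 0.05 as a call. The filter works on the counts themselves: 2 genes passed through the P25 libraries alone and 16 through the younger ones alone. Symbol stems were fitted likewise. List ratios carry exact 95% intervals from counts, and log2 differences within an antibody have 0.5 tags added. A count of 0 allows up to 3 tags. Whole-library measures were compared by exact permutation, and the gene fit was tested on simulated data. Python 3.11.15 and DESeq2 1.42.0 (an alternative) were also used.

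Named genes are those with the smallest p in each direction (10 each), the 10 with most tags, the 3 tested members with most tags of each list, and genes of known postnatal change. Members of stems and lists outside this rule, Eif4g2 among them, were picked after their values were seen. The members and lists were chosen with earlier results of these data known. Some results of single genes are not reported here. No sequences are shown, since no transcript sequence was used here. Alternatives covered scaling, filters, tool, antibody term, coding counts, the libraries' own tag lists, 1 antibody alone, each list without its top member and each library left out. The interaction, the authors' collections and the fit without clustered protocadherins were added after seeing the data.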

Additional observations from a re-analysis of the deposited data

How the results depend on the processing

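The call of 1 gene by age became 0 with DESeq2's size factors, library totals, DESeq2, no filter, no antibody term, coding-sequence counts, the libraries' own tag lists and the monoclonal libraries alone, and 0 to 0 with each library left out; with genes of at least 50 tags it was 1. The smallest adjusted p was between 0.0674 (coding-sequence counts) and 1.00 (DESeq2) among the alternatives that ended it. Arhgap32 was higher at P25 in every alternative run. The count of 0 stems became 1 (Nav) without the antibody term and 1 (Nav) on coding counts, and 0 to 1 with each library left out. Lists above all genes (3) became 1 with the monoclonal libraries alone, 1 without each list's top member and 1 to 4 with a library left out; lists below (4) became 1 with the monoclonal libraries alone and 2 to 5 with a library left out. The difference in coding share, -2.20 percentage points, ranged from -5.06 to 0.65 with a library left out and was -1.03 over genes with at least 10 tags. That in mean position along the transcript, -0.31 percentage points, ranged from -0.68 to 0.055.

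Of 67 named genes and stems, 48 kept their direction in every alternative run. With the monoclonal libraries alone the log2 difference was 0.070 for Agap2, -0.29 for Slc17a7, 0.054 for Pitpnm2, -0.065 for Dgkz and 0.19 for Fasn. With library totals it was -0.043 for Adgrl1, -0.020 for Slc17a7, -0.087 for Adgrb2, -0.028 for Kmt2d and -0.010 for Eef2. On coding counts it was -0.13 for Adgrl1, -0.13 for Slc17a7, -0.033 for Grin2b and -0.091 for Adgrb2. With DESeq2 it was -0.0063 for Slc17a7 and -0.085 for Adgrb2, which had -0.040 with DESeq2's size factors. On the own tag lists it was -0.20 for Eef2. With a library left out, the ranges were -0.70 to 0.057 for Kif1a, -0.86 to 0.072 for Agap2, -0.34 to 0.34 for Adgrl1, -0.47 to 0.085 for Atp2b2, -0.93 to 0.51 for Nrxn2, -0.037 to 1.36 for Dnm1, -0.28 to 0.65 for Slc17a7, -0.20 to 0.52 for Grin2b, -0.38 to 0.20 for Cacna1i, -0.62 to 0.30 for Adgrb2, -0.98 to 0.78 for Kmt2d, -0.41 to 0.062 for Huwe1, -3.29 to 0.058 for Pitpnm2, -0.10 to 0.59 for Dgkz, -0.42 to 0.93 for Atp5b, -0.70 to 0.65 for Eef2, -1.07 to 0.19 for Fasn, -1.91 to 0.79 for Lrp1 and -0.48 to 0.16 for Camk2a. The causes were not tested. No paired analysis was possible because the replicate numbers of the libraries only name them; antibody was a term of the fit instead. With at most 8348 tags a library, 2205 of 5941 genes had 1 tag, so most genes could not be compared.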
